A study of Mus musculus with 40 samples.

Results

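The expression of 10 genes that encode matricellular and closely related matrix glycoproteins was followed through 40 RNA-seq libraries of mouse cardiac fibroblasts. The genes were Ccn1, Ccn2, Thbs1, Thbs2, Comp, Tnc, Postn, Spp1, Sparc and Fn1, chosen by name from the 55414 genes of the raw count table. The fibroblasts came from the hearts of adult TAK1fl/fl mice on a C57BL/6J background, in which loxP sites flank an exon of Map3k7, the gene that encodes the kinase TAK1. They were infected with 1 of 2 adenoviruses, both with a CMV promoter: Ad-CMV-LacZ, the control, or Ad-CMV-iCre, which carries an improved Cre recombinase. Serum-starved cells were then left without ligand (CTRL) or given, for 24 h, bFGF at 20 ng/ml, TGFβ at 10 ng/ml, IL-1β at 15 ng/ml or TNFα at 10 ng/ml. This gave 10 groups of virus by ligand with 4 libraries each. All cells, the LacZ controls included, carried the floxed alleles and an adenovirus, and the CMV promoter drives the recombinase in any cell it enters. The paper describes the 4 of each group as biological replicates from males. The labels number the replicates of a group 1 to 4 without naming an animal or culture.

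Matricellular proteins are secreted into the extracellular matrix, where they bind collagens, growth factors and cell-surface receptors and change how cells attach and signal, rather than building the scaffold itself. Most are scarce in the resting adult heart and are made in quantity by fibroblasts in a healing infarct or an overloaded ventricle. CCN1 and CCN2 bind integrins and heparan sulfate proteoglycans. The thrombospondins bind calcium, collagens and receptors such as CD36 and CD47, and thrombospondin 1 can activate latent TGFβ. Tenascin-C modulates adhesion, periostin takes part in collagen cross-linking, osteopontin (Spp1) is a phosphoprotein ligand of integrins and CD44, and SPARC binds collagen and assists the processing of procollagen. Fibronectin (Fn1) is an adhesive glycoprotein of the provisional matrix. TAK1 is a kinase that relays signals of IL-1, TNF and TGFβ receptors to NF-κB and to stress-activated kinases.

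The libraries held 25360947 to 66160732 counts. Map3k7 stood at 144 to 251 CPM (counts scaled to a common library size) in the 20 LacZ libraries and at 122 to 160.2 CPM in the 20 iCre libraries, and it was lower with iCre in all 5 treatments, past the test with TGFβ (log2 fold change −0.67), IL-1β (−0.82) and TNFα (−0.71) and not in CTRL (−0.28) or with bFGF (−0.40); with the replicate number as a block it passed in all 5. These counts cover the whole gene and so include transcripts that lack the floxed exon. The 9 fibroblast markers summed to 15260 to 69042 CPM, and of the cardiomyocyte markers Myh6 was at 0 in 37 libraries while Tnnt2 stood at 0.271 to 110.3 CPM, Ryr2 at up to 1.62 CPM and Actn2 at up to 0.515 CPM. In bulk RNA, fewer cells of a type and less RNA per cell cannot be told apart. Several libraries stood apart. The libraries numbered replicate 2 differed from the other 3 of their group by at least 1 on the log2 scale, at the median over groups, in 4.42% of 10774 expressed genes, against 0.288% to 2.03% for the other replicate numbers. The 12 libraries of iCre cells given TGFβ, IL-1β or TNFα had another relation of counts to GC content than the other 28, with a slope of 0.217 to 0.33 against −0.243 to −0.0139 log2 units per 10% GC. The shift fell on whole groups, so in this design it cannot be told apart from the combination of virus and ligand. A correction for it may also remove a difference between the cells. Where leaving out replicate 2 or correcting for GC content ended or reversed a call on the 10 genes, this is said beside the result, while most calls that were gained are only counted. A fit with a term for the replicate number, called a block here, compares same-numbered libraries, which deviated together from their group means. Blocked results on the 10 genes are given where the call differed.

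All 10 genes were among the 25210 that passed the filter of at least 10 counts over the 40 libraries. By total counts Fn1 ranked 2 among all genes, Sparc 6, Spp1 15, Thbs1 21, Ccn2 45, Thbs2 97, Postn 133, Tnc 214 and Ccn1 517. Comp, the oligomeric matrix protein of cartilage and tendon, ranked 10466, with 7 to 714 counts in a library. The 10 genes together held 1.86% to 2.57% of all counts, as group means, without TGFβ. With TGFβ the share was 4.34% ± 0.190 (SD, n = 4) with LacZ and 4.40% ± 0.217 (SD, n = 4) with iCre. Per kilobase of exon, Sparc or Spp1 had the highest level of the 10 in every group, Fn1 ranked 3 in all 10 groups and Comp ranked 10 in all of them. The length used matters: with the longest transcript in place of all exons, 70 of the 100 ranks were kept, Fn1 ranked 2 in 4 groups and 3 in 6, and Sparc in LacZ CTRL stood at 3224 CPM per kb. By all exons in LacZ CTRL, for example, Sparc stood at 1958, Spp1 at 811, Fn1 at 748, Tnc at 21.9 and Comp at 3.55 CPM per kb.

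Over the 10 groups, Ccn2 and Postn moved through the widest range. The highest group mean was 43.4 times the lowest for Ccn2, 26.0 times for Postn, 12.2 times for Ccn1 and 11.1 times for Thbs1. The ratio was 9.87 for Tnc, 9.36 for Comp, 5.91 for Thbs2, 4.81 for Spp1, 2.93 for Sparc and 2.81 for Fn1. Without replicate 2 the ratio was 14.9 for Thbs1 and 11.8 for Ccn1, which exchanged their places, as did Fn1 (2.97) and Sparc (2.69). The Postn ratio fell to 14.1 with CPM corrected for GC content, an alternative chosen after the data were seen, while those of the other 9 genes stayed within 1.5 times and Comp (11.2) came to stand above Thbs1 (11.0) and Tnc (9.46). The order of the groups was mostly blurred by the spread between libraries. Of the 9 pairs of neighbouring groups in each gene's order, Postn had 2 whose libraries did not overlap, Thbs1, Fn1, Ccn1 and Ccn2 had 1 each, and the other 5 genes had 0. For Postn these were the first 3 groups before the GC correction, LacZ TGFβ at 3079 ± 409 CPM (SD, n = 4), iCre TGFβ at 1535 ± 216 CPM and LacZ CTRL at 715 ± 207 CPM. Corrected for GC content, LacZ TGFβ and iCre TGFβ averaged 2488 and 2290 CPM. Without the correction, from LacZ CTRL down to iCre TNFα, at 118 ± 127 CPM, each Postn group overlapped its neighbour. The plot of CPM by group shows every library.

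**Figure D1:**
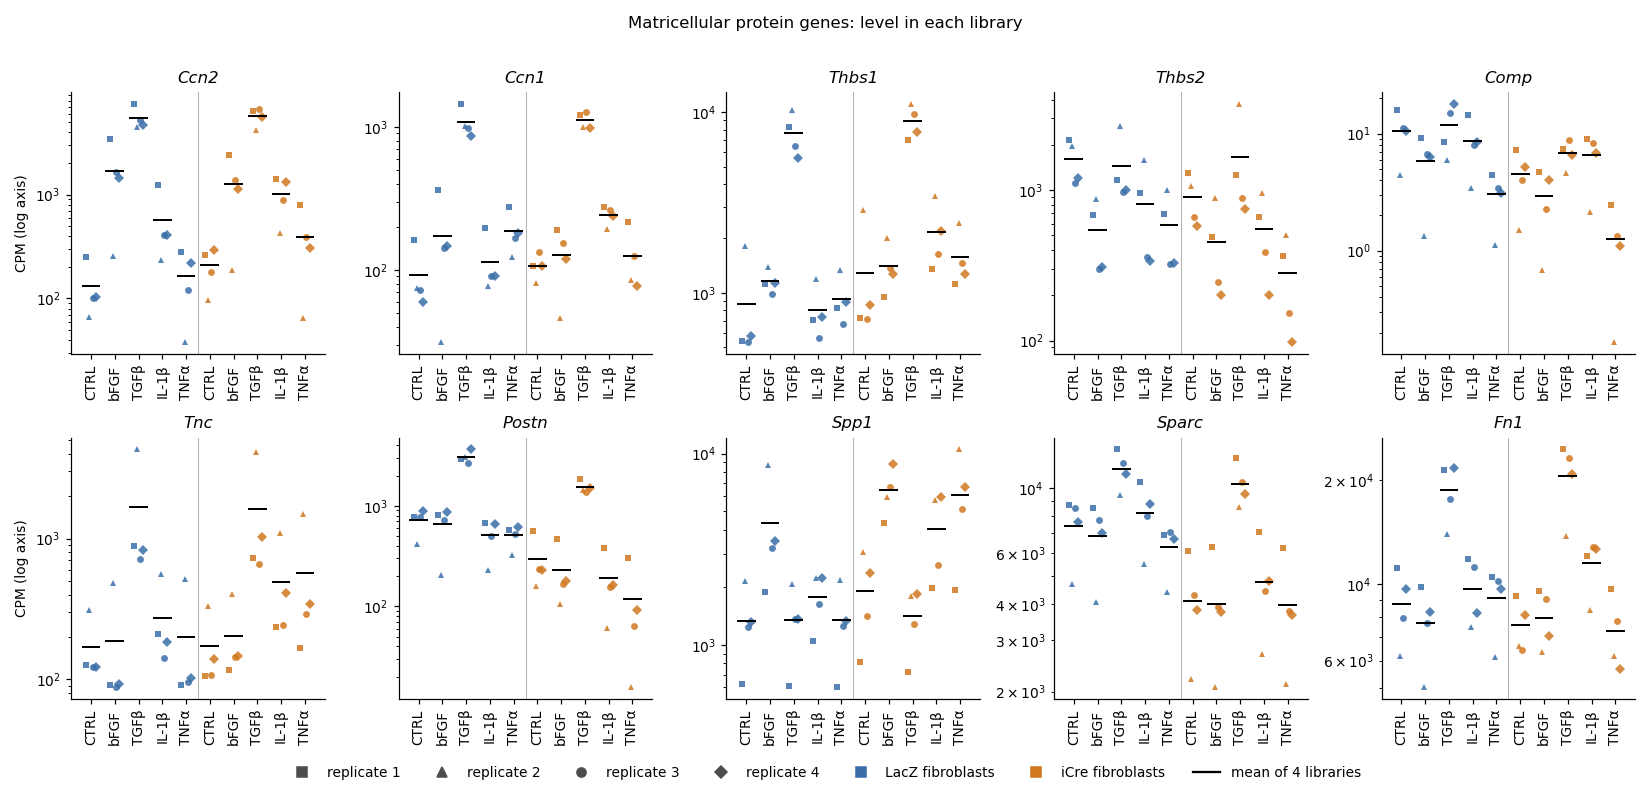
CPM (log axis) of the 10 genes in each library, 1 panel per gene, in 10 groups of 4 libraries (blue LacZ, orange iCre; marker shape gives the replicate number, the black line is the mean of 4). Ccn2, Ccn1, Thbs1, Tnc, Postn, Fn1 and Sparc have their highest group means with TGFβ under both viruses, and Tnc of replicate 2 lies above the other libraries in all 10 groups.

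The genes lie on 9 chromosomes of GRCm38, as annotated in GENCODE M21, and the counts are over their exons. The CCN genes are Ccn1, ENSMUSG00000028195, chr3:145646976-145649981, minus strand, and Ccn2, ENSMUSG00000019997, chr10:24595442-24598683, plus strand. The thrombospondins are Thbs1, ENSMUSG00000040152, chr2:118111876-118127133, plus strand, Thbs2, ENSMUSG00000023885, chr17:14665500-14694235, minus strand, and Comp, ENSMUSG00000031849, chr8:70373558-70382066, plus strand. The others are Tnc, ENSMUSG00000028364, chr4:63959785-64047015, minus strand; Postn, ENSMUSG00000027750, chr3:54361109-54391037, plus strand; Spp1, ENSMUSG00000029304, chr5:104435118-104441050, plus strand; Sparc, ENSMUSG00000018593, chr11:55394500-55423183, minus strand; and Fn1, ENSMUSG00000026193, chr1:71585520-71653200, minus strand. The annotation overlaps Ccn2 with Gm15270, Thbs1 with Gm29233, Tnc with 8030451A03Rik and Fn1 with Apol7d on the other strand, and Spp1 with Gm42793 on the same strand. Whether the counting used strand is not given in the sources used here, so reads of such pairs cannot be told apart.

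The 250 bases before the transcription start were available for 6 of the 10 genes (RefSeq, GRCm38.p6). They are shown for all 6, of which 4 rose with TGFβ and 2 did not pass the test with it without a block, using the start nearest to the GENCODE start. The start given for Sparc lies far inside the GENCODE gene, and those of the other 5 lie within 27 bases of its start. Capitals mark exact matches, on either strand, to the SMAD-binding CAGA box (CAGACA), the TEAD-binding MCAT motif (GGAATG), the AP-1 site (TGANTCA), the CArG box, the κB site and the TATA box (TATAAA). The windows lie at chr3:145649986-145650235 for Ccn1, minus strand, chr3:54360857-54361106 for Postn, plus strand, chr4:64047016-64047265 for Tnc, minus strand, chr5:104434861-104435110 for Spp1, plus strand, chr17:14694263-14694512 for Thbs2, minus strand, and chr11:55420081-55420330 for Sparc, minus strand.
Ccn1: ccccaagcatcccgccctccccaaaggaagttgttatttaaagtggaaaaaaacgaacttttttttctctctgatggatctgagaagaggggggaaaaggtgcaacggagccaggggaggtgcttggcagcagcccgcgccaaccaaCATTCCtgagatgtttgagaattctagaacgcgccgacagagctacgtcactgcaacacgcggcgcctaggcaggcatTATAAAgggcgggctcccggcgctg
Postn: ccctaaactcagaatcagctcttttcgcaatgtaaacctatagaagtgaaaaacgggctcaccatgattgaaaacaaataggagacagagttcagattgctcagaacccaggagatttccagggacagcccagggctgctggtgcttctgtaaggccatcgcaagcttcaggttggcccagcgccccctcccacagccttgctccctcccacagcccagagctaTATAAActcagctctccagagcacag
Tnc: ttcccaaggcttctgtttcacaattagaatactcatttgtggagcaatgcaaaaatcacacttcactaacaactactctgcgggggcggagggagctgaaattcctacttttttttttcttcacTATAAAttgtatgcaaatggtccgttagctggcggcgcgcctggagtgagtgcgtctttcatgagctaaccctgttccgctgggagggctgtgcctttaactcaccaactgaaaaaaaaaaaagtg
Sparc: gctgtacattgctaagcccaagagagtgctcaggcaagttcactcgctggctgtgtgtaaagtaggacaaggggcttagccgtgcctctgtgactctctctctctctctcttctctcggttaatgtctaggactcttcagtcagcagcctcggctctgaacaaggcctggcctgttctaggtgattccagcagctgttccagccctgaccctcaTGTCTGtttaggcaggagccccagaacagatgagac
Spp1: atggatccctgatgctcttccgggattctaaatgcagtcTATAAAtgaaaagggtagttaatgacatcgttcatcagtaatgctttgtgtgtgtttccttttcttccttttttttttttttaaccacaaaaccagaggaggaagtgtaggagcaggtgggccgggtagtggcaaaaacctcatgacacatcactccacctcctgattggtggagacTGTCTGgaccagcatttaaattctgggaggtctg
Thbs2: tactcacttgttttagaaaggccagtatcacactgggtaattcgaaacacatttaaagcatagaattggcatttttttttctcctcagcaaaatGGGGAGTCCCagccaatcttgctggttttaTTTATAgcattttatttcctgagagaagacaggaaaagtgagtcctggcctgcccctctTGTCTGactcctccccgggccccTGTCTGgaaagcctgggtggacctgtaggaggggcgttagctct

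The Ccn1 window held an MCAT match at −103 to −98 from the start and a TATA box at −25 to −20. The Postn window held a TATA box at −26 to −21, and the Tnc window held TATAAA at −126 to −121. Sparc, which rose with TGFβ, had a CAGA box at −36 to −31, and Tnc had one at −71 to −66 of its other listed start, not shown. Of the genes that did not pass with TGFβ, Spp1 had a CAGA box at −34 to −29 and Thbs2 had CAGA boxes at −67 to −62 and at −44 to −39 and a κB match at −156 to −147. TATAAA stood at −211 to −206 in the Spp1 window and, on the other strand, at −126 to −121 in the Thbs2 window. Among all 32851 windows of the same length, 17.1% held the CAGA box, 12.6% the MCAT motif, 7.25% the κB site and 12.4% TATAAA. No 2 marked matches overlapped. The matches describe the letters in these windows.

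TGFβ, the main fibrogenic ligand, raised 7 of the 10 genes in LacZ fibroblasts and none passed the test as lower. Ccn2 had the largest change, and Ccn1, tenascin-C and thrombospondin 1 had changes of like size, followed by periostin, with smaller changes of fibronectin and SPARC. The order of Ccn1, Tnc and Thbs1 depended on replicate 2, without which Thbs1 (3.63) lay above Ccn1 (3.51) and Tnc (2.72). Thbs2, Comp and Spp1 did not pass. Over all 25210 genes, 17.5% were called higher and 19.3% lower, at an adjusted p of at most 0.05 in edgeR's quasi-likelihood test with Benjamini-Hochberg adjustment. The median log2 fold change was 1.61 over the 10 genes and −0.17 over all genes.

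In LacZ libraries of replicates 1 to 4, Ccn2 stood at 253, 67.1, 102 and 102 CPM in CTRL and at 7389, 4465, 5259.5 and 4665 CPM with TGFβ. Every TGFβ library lay above every CTRL library (log2 fold change 5.39 with a standard error of 0.45, adjusted p = 1.19e-05). The other CCN gene, the immediate-early gene Ccn1, stood at 162, 74.6, 71.7 and 59.1 CPM in CTRL and 1443, 1009, 988 and 869 CPM with TGFβ, again without overlap (log2 fold change 3.57 with a standard error of 0.34, adjusted p = 2.39e-05). Thbs1 rose from 543, 1812, 534 and 574 CPM to 8292, 10248, 6466 and 5548 CPM (log2 fold change 3.17 with a standard error of 0.43, adjusted p = 0.000243). Its replicate 2 was the highest library in both groups, and the groups did not overlap. Tnc went from 126, 311, 123 and 122 CPM to 884, 4297, 715 and 835 CPM (log2 fold change 3.33 with a standard error of 0.63, adjusted p = 0.00203). The groups did not overlap, but replicate 2 was over 4 times the next library of the TGFβ group, and without replicate 2 the change was 2.72, adjusted p = 5.89e-08. Postn rose from 782, 414, 774 and 889.6 CPM to 2936, 3063, 2676 and 3643 CPM without overlap (log2 fold change 2.12 with a standard error of 0.23, adjusted p = 6.5e-05).

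Fibronectin rose from 6179.6 to 11159 CPM to 13968 to 21782 CPM over the 4 libraries (log2 fold change 1.11 with a standard error of 0.24, adjusted p = 0.0046). Sparc rose from 4704 to 8735 CPM to 9472 to 13587 CPM (log2 fold change 0.66 with a standard error of 0.23, adjusted p = 0.0482). Neither pair of groups overlapped. The Sparc call stood near the threshold: the adjusted p was 0.0858, 0.128 and 0.132 without replicate 1, 3 and 4, respectively, 0.0568 with a GC correction, 0.0653 with protein-coding genes only and 0.108 in a fit over all 40 libraries, while with the replicate number as a block it was 0.000607. Thbs2 had a log2 fold change of −0.13 ± 0.34 (SE), Comp of 0.17 ± 0.41 (SE) and Spp1 of 0.04 ± 0.39 (SE). For Spp1 the 4 libraries stood at 623, 2171, 1242 and 1313 CPM in CTRL and 612, 2094, 1359.6 and 1363 CPM with TGFβ, so each replicate number kept nearly its own level. Markers of cartilage and tendon, the tissues known for Comp, rose in 4 of 5 members in the same comparison, with a summed level of 63.1 to 103 CPM in CTRL and 293 to 715 CPM with TGFβ. Their part in these results was not tested. With the block the same 7 genes passed, beside 19.6% higher and 22.5% lower of all genes.

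In iCre fibroblasts the same comparison called the same 7 genes higher and none lower, beside 18.6% of all genes higher and 18.8% lower. Ccn2 stood at 263, 96.0, 179.7 and 295 CPM in iCre CTRL and at 6326, 4193, 6599 and 5616 CPM with TGFβ (log2 fold change 4.78 with a standard error of 0.36, adjusted p = 4.53e-06). Ccn1 rose from 106, 80.7, 134 and 106 CPM to 1221, 1004, 1264 and 979 CPM (log2 fold change 3.41 with a standard error of 0.17, adjusted p = 5.96e-07). No library of 1 group reached into the other for either gene. Thbs1 had a log2 fold change of 2.81 (adjusted p = 0.000646) and Tnc of 3.27 (adjusted p = 0.00246), and without replicate 2 these were 3.44 and 2.79. Postn rose from 560.2, 160.2, 235 and 229 CPM to 1851, 1427, 1370.1 and 1491 CPM (log2 fold change 2.39 with a standard error of 0.35, adjusted p = 0.000308), and its log2 fold change was 3.14 with the GC correction. Fn1 rose from 6441 to 9255 to 13825 to 24584 CPM (log2 fold change 1.46 with a standard error of 0.22, adjusted p = 0.000445), and Sparc from 2209 to 6060.2 to 8613 to 12680.2 CPM (log2 fold change 1.35 with a standard error of 0.28, adjusted p = 0.00284). With the block, under which 20.4% of all genes were called higher and 21.1% lower, Comp (0.76, adjusted p = 0.0175) and Thbs2 (0.65, adjusted p = 0.0324, or 0.0817 with bias-adjusted dispersions) also passed as higher and Spp1 as lower (−0.35, adjusted p = 0.0237). With the GC correction and the block Comp (0.52, adjusted p = 0.0968), Thbs2 (0.59, adjusted p = 0.0532) and Spp1 (−0.15, adjusted p = 0.372) no longer passed, and the 7 genes still did. Without replicate 2, and without a block, the log2 fold change was 0.21, adjusted p = 0.581 for Thbs2 and 0.50, adjusted p = 0.101 for Comp. The paired changes of Thbs2 ran from −0.04 to 1.81, the latter in replicate 2.

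bFGF, a fibroblast mitogen, gave a mixed response in LacZ fibroblasts, with Ccn2 and Spp1 higher and Thbs2 lower. Of all genes, 7% were called higher and 4.64% lower. Ccn2 stood at 3421, 257, 1650.2 and 1452 CPM with bFGF, against the CTRL values given above (log2 fold change 3.71 with a standard error of 0.70, adjusted p = 0.00994). Replicate 2 was by far the lowest of the bFGF libraries, yet it lay just above the highest CTRL library. The adjusted p was 0.0948 and 0.0866 without replicate 3 and 4, respectively. Osteopontin (Spp1) stood at 1891, 8717, 3204 and 3503 CPM with bFGF (log2 fold change 1.72 with a standard error of 0.48, adjusted p = 0.0464). Its groups overlapped, since CTRL replicate 2 lay above bFGF replicate 1, but each replicate number rose. The adjusted p was 0.0573, 0.184 and 0.189 without replicate 1, 3 and 4, respectively, and 0.0617 with the GC correction. Thbs2, a thrombospondin that affects collagen fibril assembly and angiogenesis, fell from 2157, 1954, 1112 and 1199 CPM to 687, 871, 298 and 309 CPM without overlap (log2 fold change −1.54 with a standard error of 0.38, adjusted p = 0.0274). The adjusted p was 0.0974, 0.0994 and 0.113 without replicate 1, 3 and 4, respectively, and 0.0713 in a fit over all 40 libraries.

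With the block, the bFGF comparison in LacZ cells also called Thbs1 higher (0.66, adjusted p = 0.0065) and Comp lower (−0.93, adjusted p = 0.000179), beside 14.2% of all genes higher and 13.1% lower. Comp fell in all 4 replicate numbers, from 15.9, 4.39, 11.2 and 10.5 CPM to 9.25, 1.33, 6.63 and 6.25 CPM. For Tnc the direction turned: the log2 fold change was 0.18 over 4 replicates and −0.45, adjusted p = 0.0041 without replicate 2.

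In iCre cells bFGF called only Spp1 among the 10 genes, beside 1.79% of all genes called higher and 0.635% lower. Spp1 stood at 817, 3076, 1421 and 2386 CPM in CTRL and 4323, 5954, 6700.2 and 8772 CPM with bFGF (log2 fold change 1.75 with a standard error of 0.39, adjusted p = 0.0487). The groups did not overlap, but the call lay at the threshold: the adjusted p was 0.132, 0.376 and 0.244 without replicate 1, 3 and 4, respectively, 0.0516 with another normalization, 0.0515 with another filter on low counts, 0.0539 with protein-coding genes only and 0.0561 with the GC correction. Ccn2 had a log2 fold change of 2.61 ± 0.64 (SE, adjusted p = 0.0678). With the block, under which 9.28% of all genes were called higher and 7.41% lower, Ccn2 passed as higher (2.27, adjusted p = 7e-06), as did Tnc (0.24, adjusted p = 0.0431, or 0.0739 with bias-adjusted dispersions). Thbs2 (−1.16, adjusted p = 3.83e-05), Comp (−0.69, adjusted p = 0.0095) and Postn (−0.42, adjusted p = 0.00102) then passed as lower. With the GC correction and the block Tnc no longer passed (adjusted p = 0.0638).

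IL-1β, a cytokine of the early infarct, called a single gene, Ccn2, in LacZ cells, beside 11.1% of all genes called higher and 9.55% lower. Ccn2 stood at 1221, 235, 406 and 410.2 CPM with IL-1β (log2 fold change 2.13 with a standard error of 0.55, adjusted p = 0.0205). The groups overlapped in 1 library, IL-1β replicate 2, and each replicate number rose. The adjusted p was 0.0947 and 0.0904 without replicate 3 and 4, respectively. With the block, under which 16.3% of all genes were called higher and 17.3% lower, 7 of the 10 genes passed. Because the planned block gave very small p-values in the IL-1β comparisons, the larger ones of a block with bias-adjusted dispersions are given here. Tnc (0.62, adjusted p = 0.00127), Spp1 (0.50, adjusted p = 0.00532) and Ccn1 (0.33, adjusted p = 0.0131) were higher. Thbs2 (−1.22, adjusted p = 0.00134), Postn (−0.53, adjusted p = 0.00178) and Comp (−0.30, adjusted p = 0.0377) were lower.

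In iCre cells IL-1β raised both CCN genes, beside 9.38% of all genes higher and 6.88% lower. Ccn2 stood at 1399, 428, 895 and 1328 CPM with IL-1β, above all iCre CTRL libraries (log2 fold change 2.30 with a standard error of 0.42, adjusted p = 0.00521). Ccn1 stood at 275, 192, 264 and 237 CPM, also without overlap (log2 fold change 1.20 with a standard error of 0.16, adjusted p = 0.00133), though a fit over all 40 libraries ended the call (adjusted p = 0.0595). With the block all 10 genes passed, 8 higher and 2 lower, beside 18.1% of all genes called higher and 15.6% lower. Tnc stood at 105, 333, 108 and 140.3 CPM in CTRL and 235, 1089, 243 and 408 CPM with IL-1β, higher in each replicate number though the groups overlapped (1.42, adjusted p = 1.48e-06 in the block with bias-adjusted dispersions). Thbs1 (0.95, adjusted p = 0.000346), Spp1 (1.11, adjusted p = 3.79e-06) and Fn1 (0.61, adjusted p = 0.000461) were higher as well, and so were Comp (0.60, adjusted p = 0.00556) and Sparc (0.24, adjusted p = 0.00905). Postn (−0.73, adjusted p = 0.000975) and Thbs2 (−0.84, adjusted p = 0.00187) were lower. With the GC correction and the block, Postn (0.04, adjusted p = 0.872), Comp (0.34, adjusted p = 0.0758) and Sparc (0.02, adjusted p = 0.879) no longer passed, and the sign of the Postn difference turned, while that of Fn1 was 0.37, adjusted p = 0.000997.

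TNFα lowered 2 thrombospondins in LacZ cells, and without a block none of the 10 genes passed as higher, beside 10.4% of all genes lower and 10.9% higher. Thbs2 stood at 696, 1009, 325 and 328 CPM with TNFα, below all CTRL libraries (log2 fold change −1.44 with a standard error of 0.39, adjusted p = 0.0249). Comp stood at 4.44, 1.12, 3.45 and 3.11 CPM with TNFα and overlapped CTRL only through its replicate 2 there (log2 fold change −1.79 with a standard error of 0.45, adjusted p = 0.0181). For Thbs2 the adjusted p was 0.0955, 0.0742 and 0.0809 without replicate 1, 3 and 4, respectively, and 0.0847 in a fit over all 40 libraries. For Comp it was 0.051, 0.096 and 0.0981 without replicate 1, 3 and 4, respectively. With the block, under which 17.2% of all genes were called higher and 18.4% lower, Ccn1 passed as higher (1.08, adjusted p = 1.14e-07), Postn as lower (−0.47, adjusted p = 2.22e-06) and Sparc as lower (−0.22, adjusted p = 0.00159). Ccn1 rose in all 4 replicate numbers, by 0.72 to 1.61 on the log2 scale, and its adjusted p without the block was 0.0573, 0.0393 without replicate 2 and 0.0121 in DESeq2. Tnc had a log2 fold change of 0.24 over 4 replicates and of −0.37, adjusted p = 0.00488 without replicate 2, whose TNFα library stood at 514 CPM against 91.2 to 102 CPM in the others.

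In iCre cells TNFα raised Spp1 and lowered Thbs2, beside 14.7% of all genes higher and 12.3% lower. Spp1 stood at 1934, 10515, 5138 and 6728 CPM with TNFα and rose in each replicate number, though the groups overlapped (log2 fold change 1.69 with a standard error of 0.52, adjusted p = 0.0364). Thbs2 stood at 1297, 1066, 662 and 581 CPM in CTRL and 367, 505, 152 and 98.0 CPM with TNFα, without overlap (log2 fold change −1.65 with a standard error of 0.49, adjusted p = 0.0301). For Spp1 the adjusted p was 0.149 and 0.125 without replicate 3 and 4, respectively, and for Thbs2 it was 0.0814 and 0.106 without replicate 1 and 3, respectively. With the block, beside 18.9% of all genes called higher and 17.3% lower, Tnc also passed as higher (1.42, adjusted p = 0.000259). Thbs1 did too (0.54, adjusted p = 0.03, or 0.058 with bias-adjusted dispersions, or 0.0705 with the GC correction and the block). Comp (−1.93, adjusted p = 0.000193) and Postn (−1.79, adjusted p = 0.00155) passed as lower, Postn with −1.02, adjusted p = 0.0208 when the GC correction was added and −1.12, adjusted p = 0.198 without replicate 2 and without a block. Comp stood at 2.47, 0.167, 1.32 and 1.10 CPM there, the lowest mean of the 10 groups. The 4 ligand comparisons of each virus share their CTRL libraries, and the plot of fold changes by ligand sets their values side by side.

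Cell type markers, 9 fibroblast markers among them, also passed in most of the same ligand comparisons. Of 38 markers in 7 lists, those called higher and lower without a block numbered, in LacZ cells, 1 and 4 with bFGF, 7 and 8 with TGFβ, 3 and 7 with IL-1β and 0 and 5 with TNFα, and in iCre cells 1 and 0, 7 and 9, 0 and 0, and 4 and 6 in the same order of ligands. The shares of all genes were, in LacZ cells, 7% and 4.64%, 17.5% and 19.3%, 11.1% and 9.55%, and 10.9% and 10.4%. In iCre cells they were 1.79% and 0.635%, 18.6% and 18.8%, 9.38% and 6.88%, and 14.7% and 12.3%. The TGFβ counts of LacZ cells lie near these shares. With the block the called markers numbered 6 and 11, 8 and 14, 9 and 16, and 3 and 15 in LacZ cells and 4 and 10, 10 and 13, 9 and 7, and 8 and 14 in iCre cells. The shares with the block stand above with each ligand. IL-1β in LacZ cells lowered 3 of 4 mural markers, although their sum, led by Rgs5, was 103 to 554 CPM in CTRL and 251 to 769 CPM with IL-1β. TNFα lowered 2 of the mural markers there, with a sum of 71.9 to 368 CPM, and bFGF 1. The endothelial sum of LacZ cells was 24.0 to 26.1 CPM in CTRL, above all libraries with bFGF (11.4 to 15.4 CPM), TGFβ (6.57 to 8.52 CPM), IL-1β (6.69 to 9.27 CPM) and TNFα (7.88 to 15.8 CPM), each with 1 of 4 markers lower. The cardiomyocyte sum was 14.9 to 111 CPM in CTRL, above all libraries with TGFβ (3.13 to 14.5 CPM), IL-1β (0.543 to 1.89 CPM) and TNFα (1.08 to 6.65 CPM), each with 1 of 3 markers lower. The mesothelial sum was 4.11 to 6.01 CPM in CTRL and did not overlap with IL-1β (1.39 to 2.85 CPM), where 0 of 4 markers passed. TGFβ in LacZ cells also set apart the mural sum, at 661 to 1167 CPM with 1 marker higher and 1 lower, and the fibroblast sum, at 54476 to 63559 CPM against 30019.8 to 46883 CPM in CTRL with 2 of 9 higher and 3 lower, and it called 2 of 9 macrophage markers lower. In iCre cells TGFβ raised 3 of 5 cartilage and tendon markers, with sums of 89.7 to 222 CPM in CTRL and 274 to 1321 CPM with TGFβ. There the fibroblast sum was 20649 to 36440.4 CPM in CTRL and 45388 to 59922 CPM with TGFβ, with 3 markers higher and 3 lower, and the endothelial sum 9.87 to 17.9 and 3.84 to 6.85 CPM, with 1 lower, and neither pair overlapped. It also called 2 macrophage and 2 cardiomyocyte markers lower, and 1 mural marker higher and 1 lower. The sums overlapped in every other pairing of a list with a ligand apart from the cartilage and tendon markers of LacZ cells with TGFβ given above. TNFα in iCre cells called 1 mural marker higher and 2 lower, and 1 endothelial marker higher and 2 lower. The part of these markers in the ligand results was not tested.

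**Figure D2:**
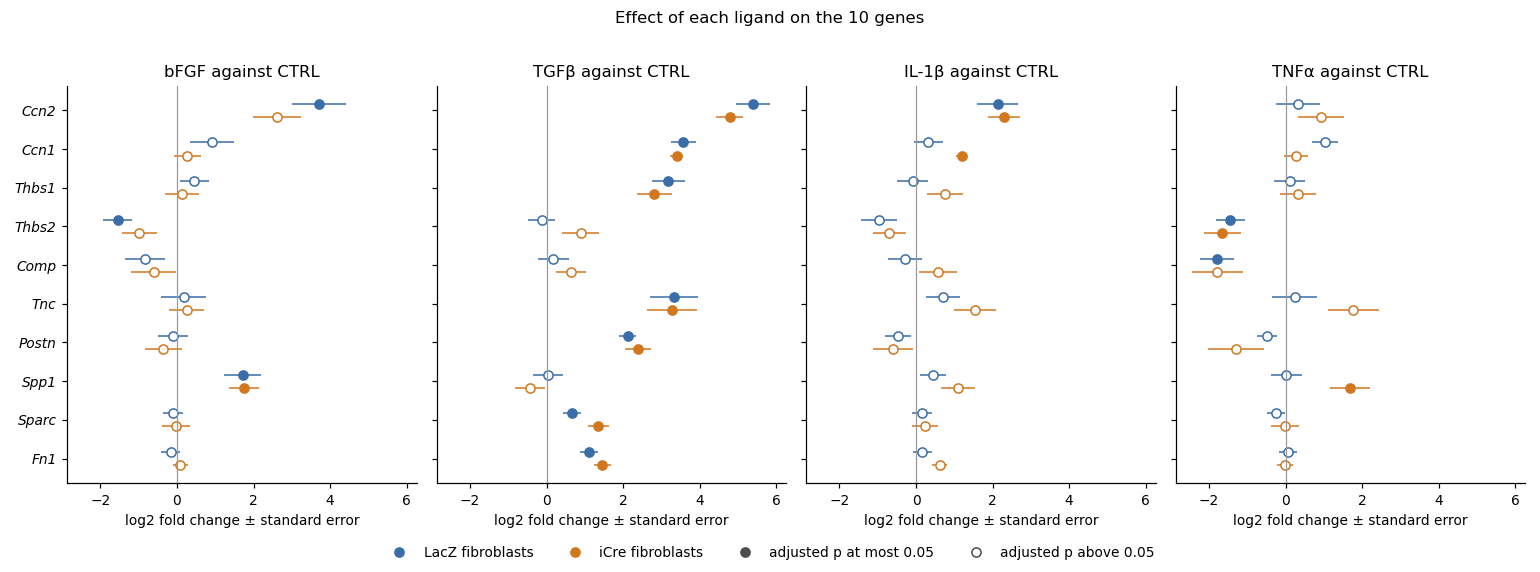
Log2 fold change against CTRL (points, with standard error bars) of the 10 genes, 1 panel per ligand, for LacZ (blue) and iCre (orange) fibroblasts, 4 libraries a group. Filled points passed an adjusted p of 0.05, and the TGFβ panel holds 7 filled points for each virus, with Ccn2 at 5.39 and 4.78.

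The comparison of iCre with LacZ within a treatment asked how these genes stood after TAK1 deletion. Without a block, none of the 10 genes passed in CTRL or bFGF, and 4 calls were made in the other treatments: Postn lower with TGFβ, Thbs1 and Ccn1 higher with IL-1β, and Spp1 higher with TNFα. In CTRL edgeR called 0.0278% of all genes higher and 0.0476% lower; 4 of the 10 genes had an unadjusted p under 0.05, and DESeq2 called 1, Postn. In bFGF edgeR called 0% of all genes higher and 0% lower; 2 of the 10 had an unadjusted p under 0.05 and DESeq2 called 0 of them. Among all genes, 2.51% higher and 5.87% lower were called with TGFβ, 7.14% higher and 8.98% lower with IL-1β and 14.8% higher and 12.6% lower with TNFα.

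Postn, a marker of activated fibroblasts, stood at 2936, 3063, 2676 and 3643 CPM in the libraries of LacZ cells and at 1851, 1427, 1370.1 and 1491 CPM in those of iCre cells with TGFβ, without overlap (log2 fold change −1.04 with a standard error of 0.14, adjusted p = 0.00126). This gene has a GC content of 36.3%, among the lowest 0.615% of genes, and the iCre TGFβ libraries differ from the LacZ ones in their GC relation. The GC relation and the combination of virus and ligand cannot be told apart here, and the part of GC content in the difference was not tested beyond the corrected values. With the GC correction the difference was −0.15, adjusted p = 0.701, and with the correction and the block it was −0.15, adjusted p = 0.508. A fit over all 40 libraries also ended the call (adjusted p = 0.273). In CTRL and bFGF, Postn differed by −1.29 and −1.51 (adjusted p = 0.184 and 0.401). Postn was lower with iCre in all 4 replicate numbers of all 5 treatments. With the block it passed in all 5, at −1.40, adjusted p = 1.8e-05 (0.00513 with bias-adjusted dispersions) in CTRL and −1.54, adjusted p = 1.2e-06 (0.00818) with bFGF. It also passed with the GC correction and the block in CTRL, bFGF, IL-1β (−0.77, adjusted p = 0.000265, against −1.62 with the block alone) and TNFα (−1.88, adjusted p = 0.0123, against −2.76).

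Thbs1 stood at 709, 1198, 563 and 730.5 CPM in the libraries of LacZ cells and at 1359, 3426, 1632 and 2211 CPM in those of iCre cells with IL-1β, without overlap (log2 fold change 1.41 with a standard error of 0.31, adjusted p = 0.0106). The adjusted p was 0.057 and 0.0701 without replicate 3 and 4, respectively, and 0.0212 with the GC correction. Ccn1 stood at 197, 77.2, 90.3 and 90.6 CPM in the libraries of LacZ cells and at 275, 192, 264 and 237 CPM in those of iCre cells with IL-1β (log2 fold change 1.07 with a standard error of 0.28, adjusted p = 0.0265). The groups overlapped through LacZ replicate 1, and the adjusted p was 0.174 and 0.128 without replicate 3 and 4, respectively, 0.062 with the GC correction and 0.0829 in a fit over all 40 libraries. Spp1 stood at 603, 2193, 1255 and 1333 CPM in the libraries of LacZ cells and at 1934, 10515, 5138 and 6728 CPM in those of iCre cells with TNFα (log2 fold change 2.19 with a standard error of 0.51, adjusted p = 0.00978). The groups overlapped through LacZ replicate 2, each replicate number was higher with iCre, and the adjusted p was 0.0638 and 0.0666 without replicate 3 and 4, respectively. Macrophages also make osteopontin: of 9 macrophage markers 1 was higher and 0 lower in this comparison, and their sum was 44.6 to 172 CPM with LacZ and 36.5 to 123 CPM with iCre, with overlapping ranges. Of 4 mural cell markers 3 were higher, with a sum of 71.9 to 368 CPM with LacZ and 302 to 1154 CPM with iCre. Of 5 cartilage and tendon markers 3 were higher, with sums of 31.1 to 81.8 and 98.6 to 359 CPM, and of 9 fibroblast markers 2 were higher and 5 lower, with sums of 25473 to 34023 and 15260.1 to 23084 CPM. Of 4 mesothelial markers 1 was higher and of 3 cardiomyocyte markers 1, with overlapping sums of 2.88 to 4.97 and 2.39 to 6.60 CPM for the former and 1.08 to 6.65 and 0.856 to 20.2 CPM for the latter. With IL-1β, where Thbs1 and Ccn1 were higher, 2 of the mural markers were higher (sums of 251 to 769 and 396 to 946 CPM), 3 of the cartilage and tendon markers were higher (41.7 to 92.9 and 88.5 to 299.9 CPM) and 3 of the fibroblast markers were lower (36390.0 to 69042 and 22784 to 35309 CPM). The mesothelial and cardiomyocyte sums did not overlap there: mesothelial markers, 1 of 4 higher, summed to 1.39 to 2.85 CPM with LacZ and 2.90 to 7.78 CPM with iCre, and cardiomyocyte markers, 1 of 3 higher, to 0.543 to 1.89 and 2.24 to 16.7 CPM. No macrophage or endothelial marker passed with IL-1β. With TGFβ, where Postn was lower, 1 of 4 mural markers was higher and 1 of 9 fibroblast markers lower, and no other marker passed. The part of any of these markers in the results was not tested.

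With the replicate number as a block, the calls among all genes came to 6.79% higher and 7.7% lower in CTRL, 6.64% higher and 7.22% lower with bFGF, 9.67% higher and 11.1% lower with TGFβ, 14.6% higher and 14.9% lower with IL-1β and 17.1% higher and 15.1% lower with TNFα. Under the block, 7 of 9 macrophage markers were lower after IL-1β, 5 in CTRL, 3 after TNFα, 3 after bFGF and 1 after TGFβ, and 1 was higher in each of IL-1β and TNFα. Of 9 fibroblast markers, 6 were lower in each of CTRL, IL-1β and TNFα and 4 in each of bFGF and TGFβ, and 2 were higher in CTRL, 2 after TNFα and 1 after IL-1β. Of 4 mural markers, 3 were higher in each of IL-1β and TNFα, 2 in each of CTRL and bFGF and 1 after TGFβ, with 1 lower in CTRL. Of 4 mesothelial markers, all 4 were higher after IL-1β and 1 in every other treatment, with 1 lower after TNFα. Of 5 cartilage and tendon markers, 3 were higher in each of IL-1β and TNFα, 2 in each of CTRL and TGFβ and 1 after bFGF, with 1 lower after TGFβ. Of 3 cardiomyocyte markers, 2 were higher after IL-1β and 1 in each of CTRL, bFGF and TNFα, with 1 lower in each of CTRL and bFGF. Of 4 endothelial markers, 1 was higher in each of IL-1β and TNFα and 1 lower in every treatment other than IL-1β, and in CTRL their sums did not overlap (24.0 to 26.1 CPM with LacZ and 9.87 to 17.9 CPM with iCre). The part of these markers in the blocked results on the 10 genes was not tested. On the 10 genes 34 calls were made over the 5 treatments, 20 lower and 14 higher. The p-values given with them are those of the planned block. With bias-adjusted dispersions they were mostly larger, for example 0.000641 for Comp and 0.00084 for Sparc in CTRL and 0.000242 for Spp1 with IL-1β. Comp was lower in all 5, at −1.29, adjusted p = 3.3e-06 in CTRL. Its IL-1β call did not hold with bias-adjusted dispersions (adjusted p = 0.0599), and with the GC correction and the block it was −0.69, adjusted p = 0.00108. SPARC was lower in all except TGFβ, at −0.92, adjusted p = 1.34e-06 in CTRL, and differed by −0.20, adjusted p = 0.0619 with TGFβ, where it passed with the GC correction added (−0.33, adjusted p = 0.0106). Thbs2 was lower in CTRL (−0.86, adjusted p = 3.62e-07), bFGF (−0.35, adjusted p = 0.00878, or 0.0626 with bias-adjusted dispersions), IL-1β and TNFα (−1.17, adjusted p = 0.000377).

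Higher calls under the block fell on Spp1, Thbs1, Tnc, Ccn1 and Ccn2. Spp1 passed in CTRL (0.48, adjusted p = 0.00115), bFGF (0.78, adjusted p = 0.00521, or 0.117 with bias-adjusted dispersions), IL-1β (1.07, adjusted p = 3.53e-07) and TNFα (2.10, adjusted p = 3.18e-05), and with the GC correction and the block also in TGFβ (0.38, adjusted p = 0.0119). Thbs1 passed in CTRL (0.51, adjusted p = 6.19e-05), IL-1β and TNFα (0.76, adjusted p = 0.00238). Tnc passed in IL-1β (0.75, adjusted p = 6.12e-05), TNFα (1.46, adjusted p = 0.000141) and bFGF (0.37, adjusted p = 0.026, or 0.163 with bias-adjusted dispersions). Without replicate 2 and without a block the bFGF differences were 1.20, adjusted p = 0.0629 for Spp1 and 0.58, adjusted p = 0.0394 for Tnc. Ccn2 passed in CTRL (0.72, adjusted p = 0.0036, or 0.0522 with bias-adjusted dispersions), IL-1β (0.96, adjusted p = 7.65e-05) and TNFα (1.14, adjusted p = 0.0019), and as lower in bFGF (−0.40, adjusted p = 0.000379). Ccn1 passed as higher in IL-1β and as lower in TNFα (−0.62, adjusted p = 0.00973). Fn1 passed in none of the 5, with differences of −0.29 to 0.24. The plot of iCre against LacZ sets the block and the GC correction beside the fit without them.

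**Figure D3:**
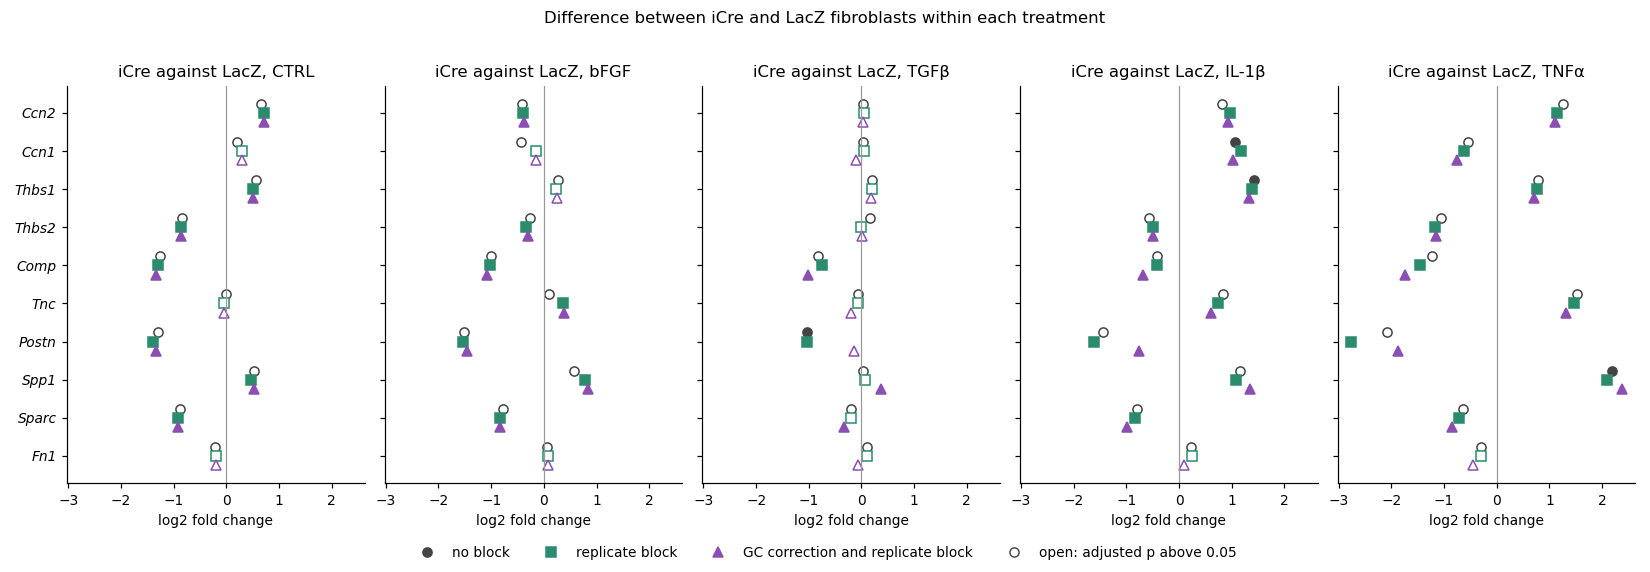
Log2 fold change of iCre over LacZ for the 10 genes in 5 treatments, with 4 libraries a group, from the fit without a block (circles), with the replicate block (squares) and with the GC correction and the block (triangles); open symbols did not pass an adjusted p of 0.05. Postn with TGFβ moves from −1.04 to −0.15 with the GC correction, while Postn in CTRL stands at −1.34 there.

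Whether the ligand response itself differed between iCre and LacZ cells was tested by the interaction of ligand and virus. Without a block, 0 of the 40 tests on these genes passed in edgeR, 1 had an unadjusted p under 0.05 (Spp1 with TNFα), and DESeq2 called 0. Of all genes the calls were 0% higher and 0% lower for bFGF, 0.893% higher and 3.62% lower for TGFβ, 2.76% higher and 4.95% lower for IL-1β and 8.38% higher and 7.7% lower for TNFα. With the block 9 interactions on these genes passed, beside 0% higher and 0% lower for bFGF, 2.36% higher and 5.68% lower for TGFβ, 7.9% higher and 8.98% lower for IL-1β and 13.2% higher and 11.9% lower for TNFα among all genes. With IL-1β, the response was more positive in iCre cells for Thbs1 (0.86, adjusted p = 0.0102), Comp (0.88, adjusted p = 0.00263), Tnc (0.81, adjusted p = 0.00559), Spp1 (0.61, adjusted p = 0.0348) and Ccn1 (0.85, adjusted p = 0.0289). With TNFα it was more positive for Spp1 (1.62, adjusted p = 8.15e-06) and Tnc (1.54, adjusted p = 0.00123) and more negative for Ccn1 (−0.94, adjusted p = 0.0208). With TGFβ it was more positive for Sparc (0.70, adjusted p = 0.0212). With the GC correction and the block, the Ccn1 interaction with IL-1β (0.72, adjusted p = 0.0905) and the Sparc interaction with TGFβ (0.57, adjusted p = 0.0972) no longer passed. Of the 38 cell type markers the block called 8 higher and 4 lower for IL-1β, 10 and 3 for TNFα, 2 and 1 for TGFβ and 0 for bFGF, and their part in these interactions was not tested.

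Within replicate numbers, TNFα moved Spp1 by −0.05 to 0.02 on the log2 scale in LacZ cells and by 1.24 to 1.85 in iCre cells. The Spp1 ranges over the 4 replicate numbers did not overlap. Tnc moved by −0.47 to 0.73 in LacZ cells and by 0.67 to 2.16 in iCre cells, with replicate 2 the highest under both viruses. The plot of paired changes shows these with Thbs1, Comp and the CCN genes.

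**Figure D4:**
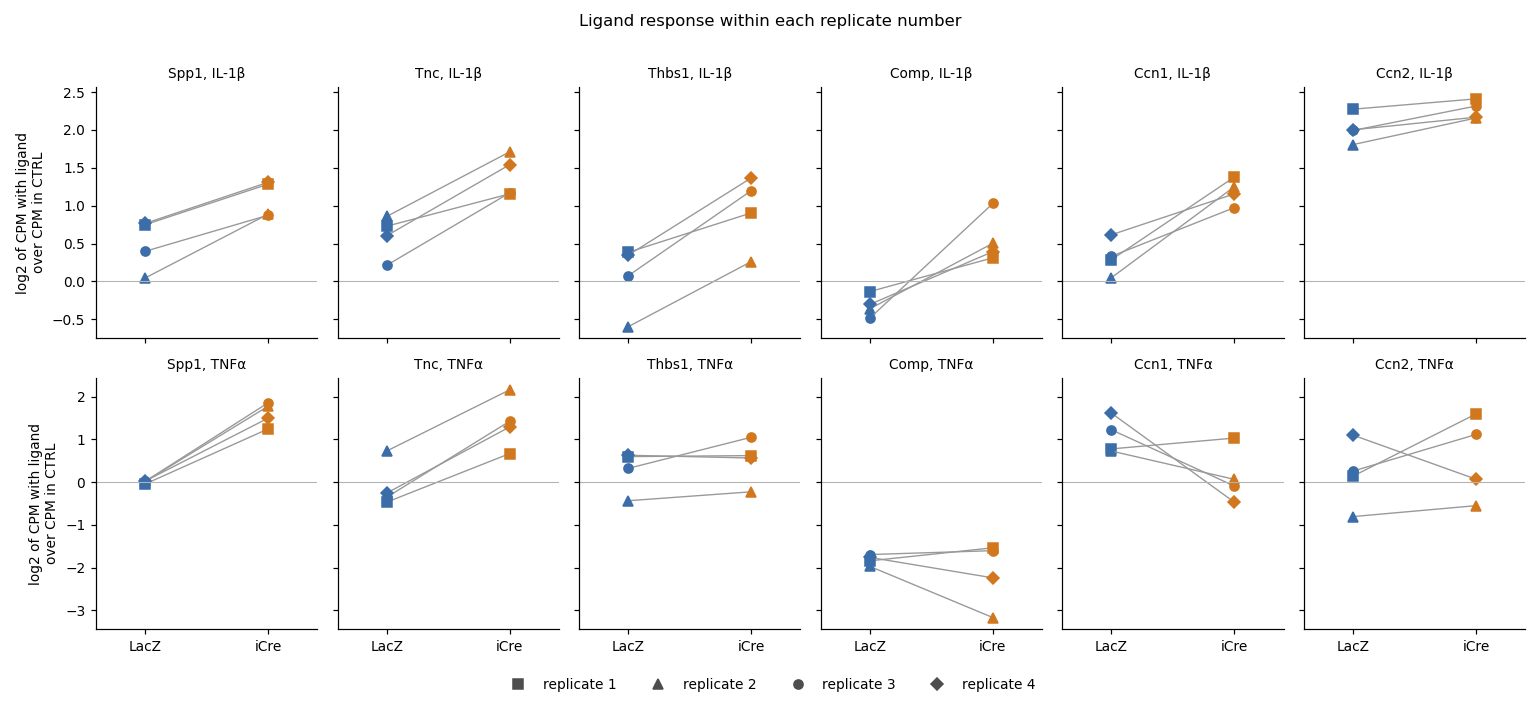
Log2 ratio of ligand to CTRL CPM within each replicate number (1 point per number, 4 per virus) in LacZ and iCre fibroblasts, for 6 genes with IL-1β (top) and TNFα (bottom). With TNFα, Spp1 changed little in the 4 LacZ pairs and rose in the 4 iCre pairs.

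The libraries of replicate 2 stood apart from their groups in several of the 10 genes, and they were not alone in this. Replicate 1 had the lowest Spp1 library of every group, for example 623 CPM in LacZ CTRL and 1934 CPM in iCre TNFα. It also had the highest Sparc library of every group apart from LacZ TNFα. Tnc was highest in replicate 2 in all 10 groups, by a median of 2.16 on the log2 CPM scale over the mean of the other 3 libraries, and Thbs1 was highest in all 10, by a median of 0.81. Thbs2 was highest in 8 groups (median 1.35) and Spp1 in 7 (median 1.06). Comp (−1.72), Ccn2 (−1.40) and Sparc (−0.87) were lowest in replicate 2 in all 10 groups. Postn (−1.08) and Fn1 (−0.55) were lowest in 8, and Ccn1 (−0.55) in 6. In the same libraries the summed macrophage markers were the lowest of their group in 9 of 10 groups and the summed mural, cartilage and tendon, and cardiomyocyte markers in all 10. The fibroblast sum was lowest in replicate 2 in 6 groups and highest in 1, while the endothelial sum was highest in 6 and the mesothelial sum in 3, and neither was lowest in any. By the median over libraries, most single markers were lower in replicate 2: 8 of 9 fibroblast and 8 of 9 macrophage markers, 3 of 4 mural, 3 of 4 mesothelial, 4 of 5 cartilage and tendon and all 3 cardiomyocyte markers, and 2 of 4 endothelial ones. The exception among fibroblast markers was Pdgfra, at 1980 CPM in these libraries and 1016 CPM in the others, while Col3a1 stood at 8606 and 12149 CPM. Of the endothelial markers Kdr (1.55 and 0.236 CPM) and Cdh5 (3.76 and 1.23 CPM) were higher and Pecam1 (0.60 and 0.647 CPM) and Tek (5.45 and 6.80 CPM) lower, and of the mesothelial markers Msln (3.35 and 0.315 CPM) was higher and Upk3b (0.199 and 1.48 CPM) lower. Whether the makeup of these cultures differed was not tested. Leaving out replicate 2 brought 34 more of the 170 tests on the 10 genes past the threshold in the same direction and lost none, and 2 more passed in the other direction, both for Tnc. The share of all genes called without replicate 2 is not given here, so the gain is not read as particular to the 10 genes. Of the 34, 31 also passed with the block. The other 3 were Thbs1 with bFGF in iCre cells (0.65, adjusted p = 0.0167), Thbs1 with TNFα in LacZ cells (0.52, adjusted p = 0.00549) and Ccn2 with TNFα in iCre cells (1.05, adjusted p = 0.0481). The interactions of Thbs1 with IL-1β (0.89, adjusted p = 0.0301) and of Tnc with TNFα (1.52, adjusted p = 0.00285) were among the 31.

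**Figure D5:**
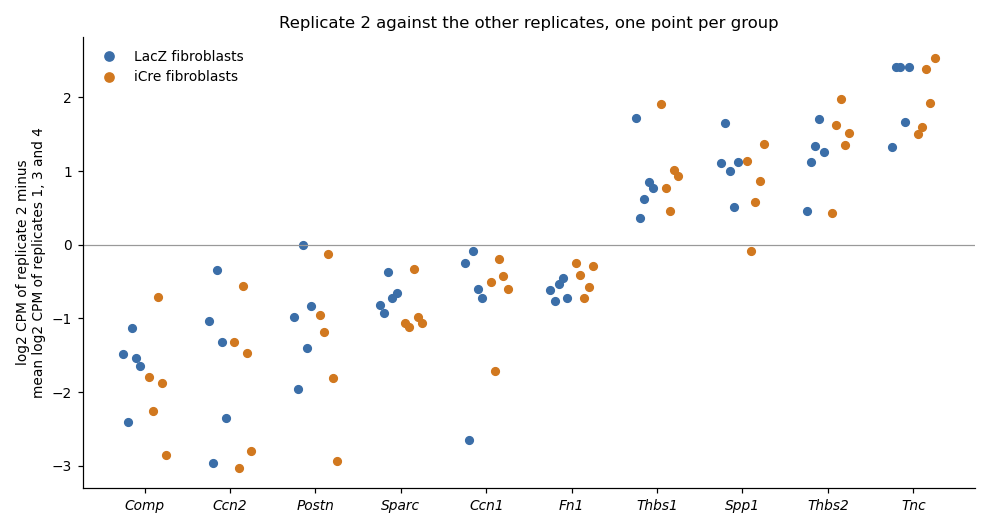
Log2 CPM (prior count 2) of replicate 2 minus the mean of replicates 1, 3 and 4, 1 point per group (10 per gene; blue LacZ, orange iCre). Tnc and Thbs1 lie above 0 in all 10 groups, and Comp, Ccn2 and Sparc lie below 0 in all 10.

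As a description, the genes moved in blocks from library to library within groups. After the group means were removed, Comp and Sparc had a Pearson r of 0.91 over the 40 libraries, Comp and Ccn2 of 0.90 and Postn and Sparc of 0.90. Tnc and Thbs1 were alike at 0.78, while Comp and Tnc ran opposite at −0.89. Over the 10 group means, by contrast, Thbs1 and Ccn1 had an r of 0.96 and Tnc and Fn1 of 0.89, against −0.38 and −0.82 within groups. The points share groups and replicate numbers, replicate 2 included.

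Beyond the 10 genes, 21 other matricellular genes, 18 receptors and 20 YAP-TEAD target genes were all tested. Counts and shares with the block follow in brackets, higher first. In LacZ cells with TGFβ, 4 other matricellular genes were higher and 6 lower (6 and 7), beside 17.5% higher and 19.3% lower (19.6% and 22.5%) of all genes. The 4 and 6 genes are 19.0% and 28.6% of the 21, the first near the share over all genes. Thbs4, picked for its fitted change, passed as higher (adjusted p = 0.000167), from 0.0473 to 2.53 CPM, but it met the minimum level only with TGFβ and had 0 to 5 counts a library in CTRL against 70 to 98, too few for a fold. The tenascin gene Tnxb had the largest fall (log2 fold change −4.62, adjusted p = 3.41e-06). In iCre cells with TGFβ, 6 were higher and 5 lower (8 and 6), beside 18.6% higher and 18.8% lower (20.4% and 21.1%) of all genes, led by Ccn4, another CCN gene (log2 fold change 5.25, adjusted p = 1.33e-06). With TNFα, 1 was higher and 7 lower (6 and 10) in LacZ cells, beside 10.9% higher and 10.4% lower (17.2% and 18.4%) of all genes. In iCre cells 0 were higher and 7 lower (1 and 9), beside 14.7% higher and 12.3% lower (18.9% and 17.3%) of all genes, and the calcium-binding matrix gene Smoc2 fell most (log2 fold change −2.61, adjusted p = 0.0216). With IL-1β, 3 were higher and 1 lower (5 and 7) in LacZ and 2 higher and 0 lower (6 and 5) in iCre cells, beside 11.1% higher and 9.55% lower (16.3% and 17.3%) of all genes in LacZ and 9.38% higher and 6.88% lower (18.1% and 15.6%) of all genes in iCre cells. Between iCre and LacZ with TNFα, 1 was higher, the TGFβ-induced adhesion gene Tgfbi (log2 fold change 2.84, adjusted p = 0.000275), and 3 were lower (2 and 10), with Spon1 the furthest (log2 fold change −3.42, adjusted p = 0.0177), beside 14.8% higher and 12.6% lower (17.1% and 15.1%) of all genes. With IL-1β 1 was higher, again Tgfbi (log2 fold change 1.71, adjusted p = 0.00198), and 1 was lower (1 and 5), beside 7.14% higher and 8.98% lower (14.6% and 14.9%) of all genes.

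Among the receptors, 10 were higher and 2 lower (11 and 3) with TGFβ in LacZ cells and 8 higher and 3 lower (10 and 4) in iCre cells, beside 17.5% higher and 19.3% lower (19.6% and 22.5%) of all genes and 18.6% higher and 18.8% lower (20.4% and 21.1%) of all genes, respectively. The fibronectin receptor gene Itga5 rose most under both viruses (log2 fold change 3.35, adjusted p = 1.2e-06 with LacZ and log2 fold change 3.11, adjusted p = 7.88e-07 with iCre). The thrombospondin receptor gene Cd36 fell most under both, at 3.31 CPM in LacZ CTRL (log2 fold change −2.87, adjusted p = 0.000578). Cd44, which binds osteopontin, had the largest rise with IL-1β in LacZ cells (log2 fold change 2.75, adjusted p = 3.23e-06), where 8 were higher and 3 lower (8 and 5), beside 11.1% higher and 9.55% lower (16.3% and 17.3%) of all genes. The collagen receptor gene Itga2 had the largest rise with TNFα under both viruses, where 7 were higher in each, with 2 lower (7 and 7) in LacZ and 3 lower (7 and 5) in iCre cells, beside 10.9% higher and 10.4% lower (17.2% and 18.4%) of all genes and 14.7% higher and 12.3% lower (18.9% and 17.3%) of all genes, respectively. Between iCre and LacZ with TNFα, 2 receptors were higher and 5 lower (2 and 5), beside 14.8% higher and 12.6% lower (17.1% and 15.1%) of all genes. Itgb3, a subunit of an integrin that binds osteopontin, had the largest difference upward (log2 fold change 2.70, adjusted p = 7.85e-05) and Itgb8 downward (log2 fold change −2.13, adjusted p = 0.000894).

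Of the 20 YAP-TEAD target genes, listed without Ccn1 and Ccn2, 10 were higher and 1 lower (13 and 1) with TGFβ in LacZ cells, beside 17.5% higher and 19.3% lower (19.6% and 22.5%) of all genes, led by the kinase gene Nuak2 (log2 fold change 3.65, adjusted p = 2.5e-05). In iCre cells 6 were higher and 2 lower (10 and 3), beside 18.6% higher and 18.8% lower (20.4% and 21.1%) of all genes, led by Ankrd1 (log2 fold change 3.73, adjusted p = 0.000265). With TNFα, 10 were higher and 3 lower (14 and 4) in LacZ cells and 5 higher and 4 lower (7 and 8) in iCre cells, beside 10.9% higher and 10.4% lower (17.2% and 18.4%) of all genes and 14.7% higher and 12.3% lower (18.9% and 17.3%) of all genes, respectively. Between iCre and LacZ with TNFα, 3 were higher and 7 lower (3 and 10), beside 14.8% higher and 12.6% lower (17.1% and 15.1%) of all genes, with Fjx1 the highest (log2 fold change 1.59, adjusted p = 0.0128) and Tgfb2, a TGFβ ligand gene, the lowest (log2 fold change −2.21, adjusted p = 0.0286). The TNFα interaction called 0 of these 20 genes as more positive and 5 as more negative in iCre cells (2 and 9), beside 8.38% higher and 7.7% lower (13.2% and 11.9%) of all genes.

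The genes most like each member, by Pearson r of log2 CPM over the 40 libraries among 14132 candidates, are given as a description. For Postn they were Slamf9 (0.96), Itga11 (0.94) and Srpx2 (0.93). For the thrombospondins they were Farp1 (0.95), Pdgfc (0.93) and Tbc1d1 (0.92) for Thbs1, Fbxo10 (0.89), N4bp2 (0.86) and Mn1 (0.85) for Thbs2 and Sfrp1 (0.91), Gramd3 (0.87) and Pth1r (0.87) for Comp. For Tnc they were Unc45a (0.90), Cavin4 (0.90) and Lig3 (0.89), for Spp1 Spred3 (0.93), Tor4a (0.91) and Errfi1 (0.89), for Sparc Fkbp9 (0.94), Ccn5 (0.93) and Bgn (0.92) and for Fn1 Luzp1 (0.93), Itga9 (0.92) and Wwc2 (0.91). For Ccn1 they were Gm17501 (0.96), Wwc2 (0.94) and Luzp1 (0.94). For Ccn2 they were Gm15270 (0.93), Unc5b (0.92) and Arntl (0.90), and the first of these overlaps Ccn2 on the other strand. Wwc2 and Luzp1 stood in the lists of both Fn1 and Ccn1. The 40 libraries share groups and replicate numbers, and 6 of the 30 entries were also named for the same member when the 10 group means were used.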

How the data were processed

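RNA-seq was run on 40 libraries of TAK1fl/fl mouse cardiac fibroblasts. The deposited table holds raw counts per gene: the authors aligned reads with STAR to mm10 (GRCm38), and the submitters' processing notes name FastQC 0.10.1 and HTSeq 0.10.0. The annotation release and the strand setting are not given in the sources used here. The labels name a NEBNext kit and the methods a TruSeq kit, so the library kit is uncertain. All 40 columns matched a sample. Of 55414 gene IDs, 52133 are in GENCODE M21, with 99.6% of counts.

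Counts were scaled by TMM, and CPM were computed on the scaled library sizes. Genes with at least 10 counts over the 40 libraries (25210) were tested with edgeR 4.0.16 (quasi-likelihood test, R 4.3.3) on the 8 libraries of a pair of groups, or the 16 of an interaction, with Benjamini-Hochberg adjustment over all genes and a threshold of 0.05. DESeq2 1.42.0, which gave NA for 7 of the 170 tests on the 10 genes, another normalization, other filters, a replicate block, a GC correction, a fit over all 40 libraries and leaving out each replicate number were alternatives; leaving out a number removes it from each group of the comparison. The scripts were tested on simulated data.

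Same-numbered libraries deviated together from their group means: over 10774 genes the smallest r of a pair was 0.311 to 0.664 over the 17 comparisons, every one above 0.1, so the numbers pair the libraries. The pairing comes from the data, since the labels name no shared animal or culture, and p-values measure the spread between these libraries. Across all groups, 179 of 180 same-number pairs were above 0.1. No libraries were identical.

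The 10 genes and the other lists were chosen with earlier results of these data known. The text names all 10, the 3 genes most like each, and, per list and comparison named, the largest rise and fall past the threshold with a group mean of at least 1 CPM. Values rest on 25360947 to 66160732 counts per library, of which Comp held the fewest of the 10 genes in total.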

Additional observations from a re-analysis of the deposited data

Results flagged for a closer look

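In groups of 4 libraries, a library was singled out where its gap to the nearest other, divided by the range of the group, exceeded Dixon's critical value for 4 samples. This happened in 16 of 100 combinations of gene and group. Chance flags about 1 in 20 groups. Of the 16, 14 were replicate 2 and 9 were Tnc. Tnc of replicate 2 stood far above its group at 311 CPM in LacZ CTRL, 563 CPM in LacZ IL-1β, 4297 CPM in LacZ TGFβ, 514 CPM in LacZ TNFα and 482 CPM in LacZ bFGF. In iCre cells it did so at 333 CPM in CTRL, 4118 CPM in TGFβ, 1484 CPM in TNFα and 407 CPM in bFGF. Thbs1 of replicate 2 stood far above the others at 1812 CPM in LacZ CTRL and 2855 CPM in iCre CTRL, and Thbs2 of replicate 2 at 2656 CPM in LacZ TGFβ. Replicate 2 was far below the others for Fn1 in iCre IL-1β, at 8427 CPM, and for Sparc in LacZ TNFα, at 4403 CPM. Ccn1 of replicate 1 was far above the others at 162 CPM in LacZ CTRL and 197 CPM in LacZ IL-1β.

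The response to a ligand differed between iCre and LacZ cells, by an interaction term in edgeR's fit with the replicate block, in 9 cases. With IL-1β the differences on the log2 scale were 0.86 for Thbs1, 0.88 for Comp, 0.81 for Tnc, 0.61 for Spp1 and 0.85 for Ccn1. With TNFα they were 1.54 for Tnc, 1.62 for Spp1 and −0.94 for Ccn1. With TGFβ it was 0.70 for Sparc. With the GC correction added to the block, Ccn1 with IL-1β (adjusted p = 0.0905) and Sparc with TGFβ (0.0972) no longer passed. None of these 9 passed without the block when all 4 replicates were used.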

How the results depend on the processing

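Of 29 calls on the 10 genes among 170 tests without a block, all 29 also passed with the replicate block, which called 99. The shares of all genes stand above, per comparison, for the fits without and with the block only. The counts below are therefore not read as particular to the 10 genes. With bias-adjusted quasi-likelihood dispersions, an alternative chosen after the data were seen, the block called 93, having lost 8 and gained 2. No call changed sign under the block, and it lost none. Without replicate 2, 2 results reversed: Tnc in LacZ cells with bFGF (−0.45, and up to 0.29 without another replicate) and with TNFα (−0.37, and up to 0.37). Leaving out single replicate numbers lost 13 of the 29 calls at least once and kept 16 in every such fit. The fit over all 40 libraries ended 6 calls: Sparc (adjusted p = 0.108) in LacZ with TGFβ, Thbs2 in LacZ with bFGF (0.0713) and TNFα (0.0847), Ccn1 in iCre with IL-1β (0.0595), and iCre against LacZ for Postn with TGFβ (0.273) and Ccn1 with IL-1β (0.0829). The causes were not tested. Comp had 7 to 714 counts a library, and its standard errors without a block (0.33 to 0.85) lay within those of the other 9 genes (0.14 to 0.98); the part of depth was not tested.

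Ligand against CTRL in LacZ cells gave 10 higher and 3 lower calls. The replicate block gave 15 higher and 9 lower, the bias-adjusted block 15 and 10, the GC correction with the block 15 and 10, and the fit over all 40 libraries 9 and 1; leaving out a replicate gave 6 to 14 higher and 0 to 10 lower. In iCre cells there were 11 higher and 1 lower. The block gave 23 and 9, the bias-adjusted block 20 and 9, the GC correction with the block 17 and 8, DESeq2 2 lower, all 40 libraries 2 lower, and leaving out a replicate 9 to 19 higher and 0 to 3 lower. iCre against LacZ gave 3 higher and 1 lower. The block gave 14 and 20, the bias-adjusted block 11 and 19, the GC correction with the block 15 and 20, the GC correction alone 0 lower, DESeq2 5 and 4, and RLE normalization, filterByExpr and no filter 2 lower each; leaving out a replicate gave 0 to 9 higher and 1 to 8 lower. The interaction gave 0 and 0. The block gave 8 higher and 1 lower, the bias-adjusted block 8 and 1, the GC correction with the block 6 and 1, and leaving out a replicate 0 to 2 higher and 0 to 1 lower. With raw library sizes, 5 of 100 group levels moved by more than the replicate SD: Postn and Sparc with TGFβ in both LacZ and iCre cells, and Ccn1 with TGFβ in iCre cells.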
